A study of Drosophila melanogaster with 3 samples.

Results

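Transfer RNA (tRNA) genes were examined for binding of Atf3, a basic leucine zipper transcription factor of the ATF/CREB family, in whole embryos of Drosophila melanogaster. The members were every gene with the biotype tRNA in the Ensembl annotation on the main arms (X, 2L, 2R, 3L, 3R and 4). This gave 290 of 17896 annotated genes, of which 98 lay on 2R, 79 on 3R, 48 on 3L, 41 on 2L, 24 on X and 0 on 4. Chromatin immunoprecipitation with sequencing was performed in transgenic embryos (strain label A3-3-GFP, an insertion that makes Atf3 with GFP at its C-terminal end), collected at 0 to 24 hours of age, with both sexes pooled. The sample description names an anti-GFP antibody, while the antibody field of the labels gives Atf3, so whether untagged Atf3 was also captured cannot be told. The 3 biological replicates form the only group. No group without the transgene is among the samples, and cells in which Atf3 bound a site cannot be told apart from cells in which it did not. The data are lists of called peaks on the dm6 assembly: 30000 calls for each replicate, 27754 for the replicates pooled, and 2896 peaks in a list with a cutoff on IDR (irreproducible discovery rate), which scores the repeatability of a peak's rank between replicates. IDR peaks at the genes named below kept their pooled signal and rank, as at Tyr-GTA-1-8 (rank 222 in both lists). A place in the IDR list does not mean a call in each replicate, since 2747 of the 2896 were found in all 3. Each call has a summit and a signal value, which is the authors' own score for the peak and was used only to describe and rank peaks within a list. The depth of the libraries is unknown, because peak lists hold no read totals, and all intervals below cover counting error only. Replicate 1 stood apart from the others in its weaker calls at tRNA genes, so values are given for each replicate.

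tRNA genes are transcribed by RNA polymerase III from promoters that lie inside the transcribed sequence. The general factor TFIIIC recognises an A box and a B box within the gene and recruits TFIIIB (Brf, Bdp1 and a TBP-type factor) just upstream, and TFIIIB in turn recruits the polymerase. In flies many tRNA genes come in groups of neighbours and in identical copies. Atf3 and its relatives are RNA polymerase II factors, known for binding cAMP response elements (CRE, TGACGT) and, as partners of Fos and Jun proteins, AP-1 sites (TGANTCA).

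The tRNA genes were 71 to 186 bp long, with a median of 73 bp, and read 44 anticodons of 22 isotypes. They had 95 distinct sequences, compared over the whole annotated gene with any intron. A B box core (GTTCNANNC) was found in 271 of them, and an A box match in 289. A few of the genes with an IDR summit nearby are shown because the results turn on them, 5′ to 3′ on the gene's own strand from the release 6 genome, with the A box and the B box core in capitals. Tyr-GTA-1-8 (chr3R:8669081-8669174, minus strand, in an intron of the pink gene, p) has a sequence found in 1 gene only and is 94 bp long. Gln-TTG-2-1 (chrX:3427452-3427523, minus strand, in an intron of CG12535) also has a sequence of its own. Pro-TGG-1-5 (chr3R:18628467-18628538, minus strand, in an intron of qin) is 1 of 5 identical genes, and Val-CAC-2-5 (chr3R:19672277-19672349, minus strand, in an intron of Naam) is 1 of 6. Asp-GTC-1-5 (chr2L:8541761-8541832, plus strand, intergenic) shares its sequence with its neighbour Asp-GTC-1-4 (chr2L:8541552-8541623, minus strand) and is 1 of 12 identical genes.
Tyr-GTA-1-8: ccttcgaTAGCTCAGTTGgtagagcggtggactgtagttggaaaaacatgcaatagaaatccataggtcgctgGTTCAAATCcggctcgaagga
Gln-TTG-2-1: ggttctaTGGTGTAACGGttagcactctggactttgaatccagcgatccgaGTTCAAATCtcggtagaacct
Pro-TGG-1-5: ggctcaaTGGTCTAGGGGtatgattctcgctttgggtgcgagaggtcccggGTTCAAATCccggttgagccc
Val-CAC-2-5: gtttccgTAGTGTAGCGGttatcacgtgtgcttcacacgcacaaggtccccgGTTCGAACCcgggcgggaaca
Asp-GTC-1-5: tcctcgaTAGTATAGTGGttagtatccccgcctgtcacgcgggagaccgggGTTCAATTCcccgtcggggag

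An IDR summit lay within 500 bp of 14 of the 290 tRNA genes, or 4.83% (95% Wilson interval 2.9 to 7.94%). Measured from the 5′ end, as for other genes, the count was 12 (4.14%), against 10.7% of all 17896 genes. Protein-coding genes had an IDR summit within 500 bp of any transcription start site (TSS) in 14.2% of cases. The share of tRNA genes was thus under that of genes at large. It was over that of arbitrary sequence: a 73-bp interval placed at every position on the arms would be within 500 bp of an IDR summit in 2.24% of placements. The 14 genes shared 11 distinct summits, since neighbours can lie within reach of the same one, and the intervals treat genes as independent. The IDR peaks matched by a strong call in each of the remaining replicates (among the 2896 calls of highest signal) left 9 genes without replicate 1, 9 without replicate 2 and 7 without replicate 3. These sets held 1910, 1815 and 1773 peaks and are smaller by construction.

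The replicates were compared through the 2896 calls of highest signal in each, called its top peaks. Those of replicates 1, 2 and 3 lay within 500 bp of 15, 11 and 11 tRNA genes, a mean of 4.25% ± 0.797 (SD, n = 3). All genes gave 9.94%, 11.3% and 9.75% in the same lists, and interval placements 2.22%, 2.24% and 2.24%. In each replicate the tRNA share was therefore between the other two. The Wilson intervals of replicates 2 and 3 (2.13 to 6.66% in both) reached down to the placement share. Measured from the 5′ end, as for all genes, the tRNA shares were 4.83%, 3.79% and 3.45%. In the full lists replicate 1 stood apart. Its calls lay within 500 bp of 104 tRNA genes (35.9%), against 43 (14.8%) in replicate 2 and 55 (19.0%) in replicate 3. All genes gave 44.4%, 36.1% and 34.0% in those lists, and placements 20.6%, 21.9% and 21.9%. The tRNA share of replicate 1 was over its placement share, and those of replicates 2 and 3 were under theirs. The pooled list reached 67 tRNA genes (23.1%), with 39.1% of all genes and 19.9% of placements.

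**Figure D1:**
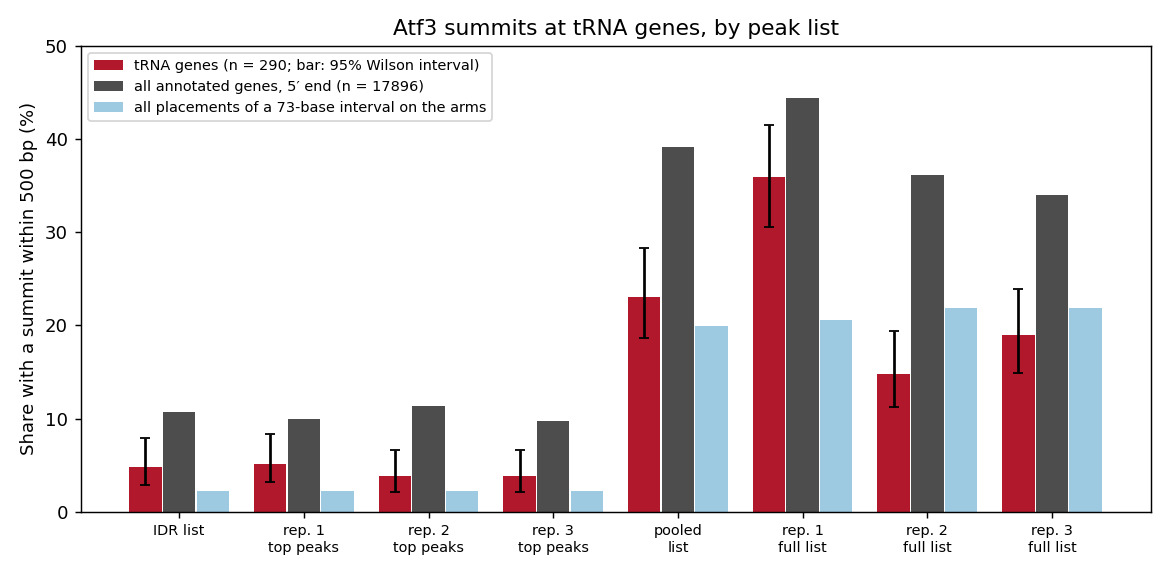
Share of tRNA genes (red, with 95% Wilson intervals), of all annotated genes by their 5′ end (dark grey) and of all placements of a 73-bp interval (blue) within 500 bp of a summit, for each peak list. tRNA genes lie between the other two in the IDR list and in each set of top peaks, and only replicate 1 among the full replicate lists puts them above the placements (35.9% against 20.6%).

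The signal of the summits at tRNA genes was close to that of the whole IDR list. It ran over 92.49 to 315.2 with a median of 130, and the median of all 2896 peaks was 122. All 11 were found in the 3 replicate lists, and 6 of them were among the top peaks of all 3. Replicate 1 ranked 8 of the 11 higher than the other replicates did (72.7%), while it did so for 31.3% of all IDR peaks found in the 3 lists (860 of 2747). The promoter of Atf3 itself held IDR peak 6 by rank, with replicate ranks of 5, 7 and 8. With no group without the transgene among the samples, this is no independent check of the assay.

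**Figure D2:**
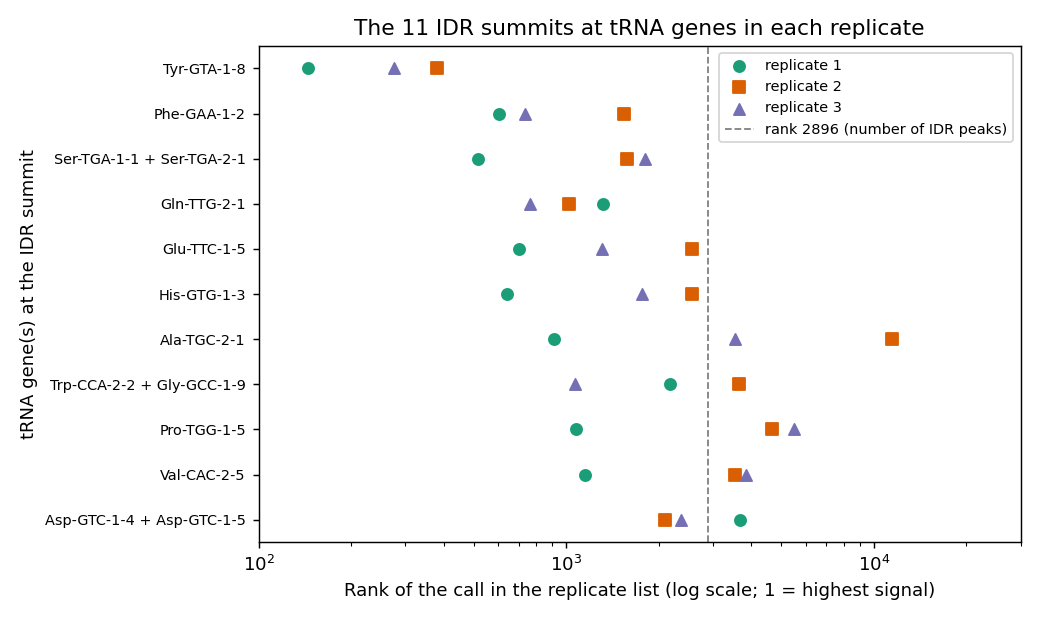
Rank of each of the 11 IDR summits at tRNA genes in the list of each replicate, on a log scale where 1 is the call with the highest signal; the dashed line marks rank 2896. The summit at Tyr-GTA-1-8 is within rank 381 in every replicate, and that at Ala-TGC-2-1 spreads from rank 915 in replicate 1 to 11462 in replicate 2.

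The strongest summit was at Tyr-GTA-1-8. Its signal was 315.2 (IDR rank 222), and replicates 1, 2 and 3 ranked it 145, 381 and 276. The summit was 195 bp upstream of the tRNA gene and 249 bp from the TSS of CG8036. Phe-GAA-1-2, a single gene on X, came next with a signal of 173.2 and replicate ranks of 606, 1538 and 737. That summit was 180 bp beyond the 3′ end of the tRNA gene but 53 bp from the TSS of RpL17, which encodes a ribosomal protein. For Gln-TTG-2-1 the signal was 150.0 with replicate ranks of 1316, 1024 and 765. No protein-coding TSS was near that summit, which lay 231 bp upstream of the tRNA gene and 8053 bp from the TSS of CG14269. These 3 summits were among the top peaks of every replicate.

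Pro-TGG-1-5 and Val-CAC-2-5 were less even. The summit at Pro-TGG-1-5 had a signal of 104.1 and replicate ranks of 1074, 4654 and 5504, and that at Val-CAC-2-5 a signal of 100.5 and replicate ranks of 1155, 3550 and 3857. Both were thus top peaks in replicate 1 only. The Pro-TGG-1-5 summit was 149 bp upstream of the tRNA gene and 7360 bp from any protein-coding TSS. The Val-CAC-2-5 summit was 441 bp downstream of the tRNA gene, and the TSS of Naam, a nicotinamidase gene, was 386 bp from it. Asp-GTC-1-4 and Asp-GTC-1-5 shared the weakest of the summits (signal 92.49, replicate ranks 3663, 2097 and 2364). It was 71 bp from the TSS of Sema1a, which encodes a semaphorin of axon guidance, and 244 bp from the nearer tRNA gene.

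Each summit and the 100 bp to either side of it were searched on both strands for motifs of bZIP factors and of common fly promoters. The CRE core TGACGT was in 2 of the 11 windows, against 6.04% of all IDR summits, and the AP-1 site TGANTCA in 2, against 5.46%. The full palindrome TGACGTCA, which contains the core, was in 0 of 11 and in 1.52% of all IDR summits. The promoter element DRE (TATCGATA) was in 1 of 11, against 4.39%. The full B box pattern, which is longer than the core and was found in 36.2% of tRNA genes, was in 0 of 11 and in 0.104% of all. The closest of the 11 summits was 114 bp from a tRNA gene, so no window reached into a tRNA gene. The search therefore could not find the B box of a tRNA gene, and nothing is concluded from the 0 of 11. A match is a description of the letters only, and its absence says nothing of what was bound. The window at Pro-TGG-1-5 is shown because it alone held CRE cores and an AP-1 site, and that at Tyr-GTA-1-8 because it was the strongest. At Pro-TGG-1-5 TGACGT starts 54 and 33 bp before the summit and an AP-1 site 79 bp after it, all in capitals. The Tyr-GTA-1-8 window holds none of the motifs searched. Both are printed on the plus strand, with the summit as the middle base.
Summit at Pro-TGG-1-5, chr3R:18628587-18628787: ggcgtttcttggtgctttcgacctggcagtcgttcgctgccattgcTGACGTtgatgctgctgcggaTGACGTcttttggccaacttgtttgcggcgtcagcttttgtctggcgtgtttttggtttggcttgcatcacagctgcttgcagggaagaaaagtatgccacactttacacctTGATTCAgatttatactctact
Summit at Tyr-GTA-1-8, chr3R:8669269-8669469: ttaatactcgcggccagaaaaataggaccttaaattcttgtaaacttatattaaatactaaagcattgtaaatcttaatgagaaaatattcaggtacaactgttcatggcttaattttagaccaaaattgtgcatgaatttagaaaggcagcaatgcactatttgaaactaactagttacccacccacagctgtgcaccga

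The share with a summit was highest next to protein-coding promoters. The median tRNA gene was 2858 bp from one. The 14 genes with an IDR summit had a median of 676 bp (233 to 13384 bp), and the other tRNA genes had a median of 3020 bp. Of the 33 tRNA genes within 500 bp of a TSS, 6 had an IDR summit, or 18.2% (95% Wilson interval 8.61 to 34.4%), against 9.08% of interval placements at that distance. At 501 to 1000 bp it was 2 of 47 (4.26%, against 2.57%). At 1001 to 5000 bp it was 3 of 100 (3%, against 1.57%), and beyond 5000 bp 3 of 110 (2.73%, against 0.865%). Taken over all 210 tRNA genes more than 1000 bp from a TSS, 6 had a summit, or 2.86% (1.32 to 6.09%), and placements gave 1.16%. The share of tRNA genes was over that of placements in each of these bins in the IDR list. Every Wilson interval but that of all 210 genes and that beyond 5000 bp reached down to the placement share. The 6 of the 210 genes include Ser-TGA-1-1 and Ser-TGA-2-1, which share 1 summit and were counted separately. The lower bound for 5 of 210 genes, as in the top peaks of replicate 2, is 1.02%, under the IDR placement share of 1.16%. In the top peaks of replicates 1, 2 and 3 the 210 genes gave 9, 5 and 4 with a summit. These shares of 4.29%, 2.38% and 1.9% compare with 1.12%, 1.11% and 1.27% of placements. Their Wilson lower bounds were 2.27%, 1.02% and 0.743%, so those of replicates 2 and 3 reached down to the placement share. At 501 to 1000 bp the top peaks gave 2.13% in each replicate, under placements of 2.74%, 2.64% and 2.6%. The other bins were over their placements in each replicate.

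**Figure D3:**
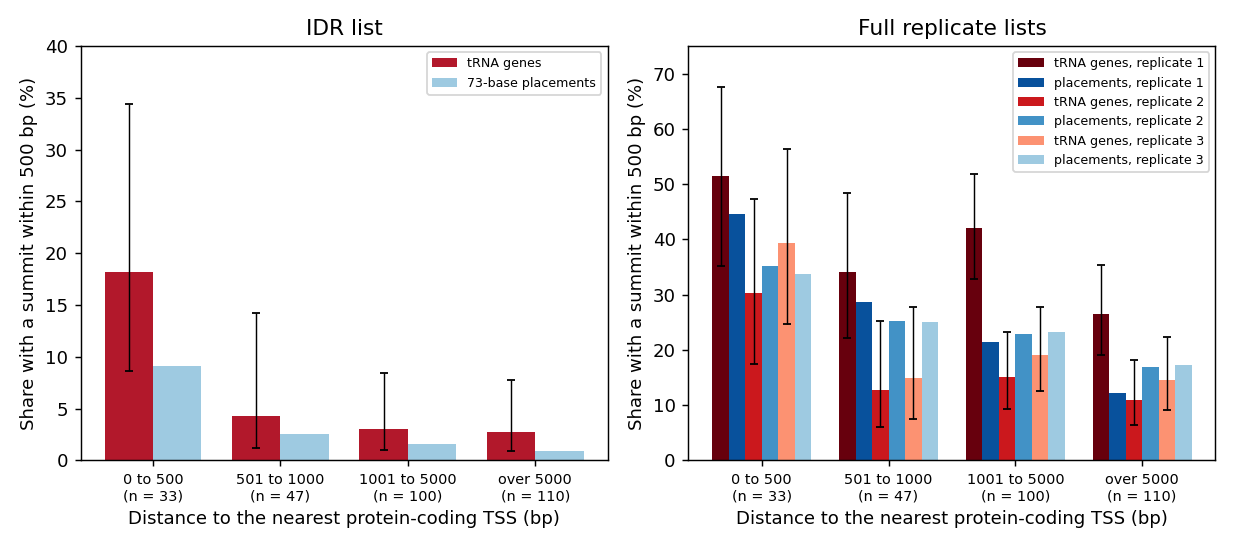
Share of tRNA genes (reds, with 95% Wilson intervals) and of 73-bp interval placements (blues) within 500 bp of a summit, by distance to the nearest protein-coding TSS, in the IDR list (left) and the full list of each replicate (right). The IDR share of tRNA genes is 18.2% within 500 bp of a TSS and 2.73% beyond 5000 bp; beyond 1000 bp the full list of replicate 1 exceeds its placements and those of replicates 2 and 3 do not.

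Of the 11 IDR summits, 6 were nearer to the tRNA gene than to a protein-coding TSS, and 5 were nearer to a TSS. Within 500 bp of a TSS lay 6 of the 11, as did 1469 of all 2896. Those nearer to a tRNA gene included the 5 that lay over 1000 bp from any TSS: the summits at the Ser-TGA pair, Gln-TTG-2-1, Glu-TTC-1-5, Ala-TGC-2-1 and Pro-TGG-1-5. For these 5 the order was fixed by the choice of summits within 500 bp of a tRNA gene. The Ser-TGA-1-1 and Ser-TGA-2-1 genes, on 2R and each with a sequence of its own, shared a summit of signal 160.4 (replicate ranks 518, 1578 and 1800) that was 114 bp upstream of Ser-TGA-2-1. Glu-TTC-1-5, in a group of 7 tRNA genes on 2R, had the summit farthest from any TSS (13140 bp from that of CG8517), with a signal of 130.7, replicate ranks of 700, 2561 and 1308, and a CRE core starting 5 bp after the summit. Ala-TGC-2-1 had a summit of signal 117.5 that replicate 1 ranked 915, replicate 2 ranked 11462 and replicate 3 ranked 3531, the widest spread of the 11. At the other end, the summit shared by Trp-CCA-2-2 and Gly-GCC-1-9 (signal 110.0) was 30 bp from the TSS of CG30122, 317 bp from the nearer tRNA gene, and held the one DRE. His-GTG-1-3 had a summit of signal 130.3 that was 126 bp upstream of it and 124 bp from the TSS of CG8490.

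None of the IDR summits lay inside a tRNA gene, where the A box and B box are. The tRNA genes cover only 22026 of the 133880608 arm bases, so a count of 0 is near the base share. Genes for snoRNA, microRNA and rRNA also had 0 IDR summits inside, and snRNA genes had 6. Of the 14 genes, the best summit was upstream of the 5′ end for 8 and downstream of it for 6, at 114 bp at the closest. The IDR summits were dense next to the genes: 9 fell 1 to 250 bp from a tRNA gene, or 74.8 per Mb, against 22 per Mb at 251 to 500 bp, 30.4 per Mb at 501 to 1000 bp and 21.6 per Mb over the whole arms. The top peaks of replicates 1, 2 and 3 gave 74.8, 58.2 and 41.5 per Mb at 1 to 250 bp. At 251 to 500 bp they gave 33.0, 22.0 and 44.0 per Mb, so replicate 3 had no fall with distance. In the pooled list the density was 216 per Mb at 1 to 250 bp and 297 at 251 to 500 bp. At 1 to 250 bp from tRNA genes over 1000 bp from a TSS the IDR density was 56.7 per Mb, from 5 summits. The top peaks gave 68.0, 22.7 and 22.7 per Mb there. At 251 to 500 bp the density was 0 in the IDR list and 14.9, 29.8 and 29.8 per Mb in the top peaks. The whole-arm density includes promoters and is no baseline for TSS-distant sequence.

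Weak calls inside the genes were a feature of replicate 1. Its full list had 15 summits inside tRNA genes, or 681 per Mb, against 1 each in replicates 2 and 3, or 45.4 per Mb, and 224 per Mb over the whole arms in every replicate. The pooled list had 7. The 15 calls ranked 4147 to 28655 with signals of 11.32 to 31.13, so 0 were top peaks. Of the genes they lay in, 13 had identical copies elsewhere, as did 238 of all 290 tRNA genes. Small nucleolar RNA (snoRNA) genes had 15, 9 and 3 summits inside in replicates 1, 2 and 3, and microRNA genes 4, 6 and 5.

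**Figure D4:**
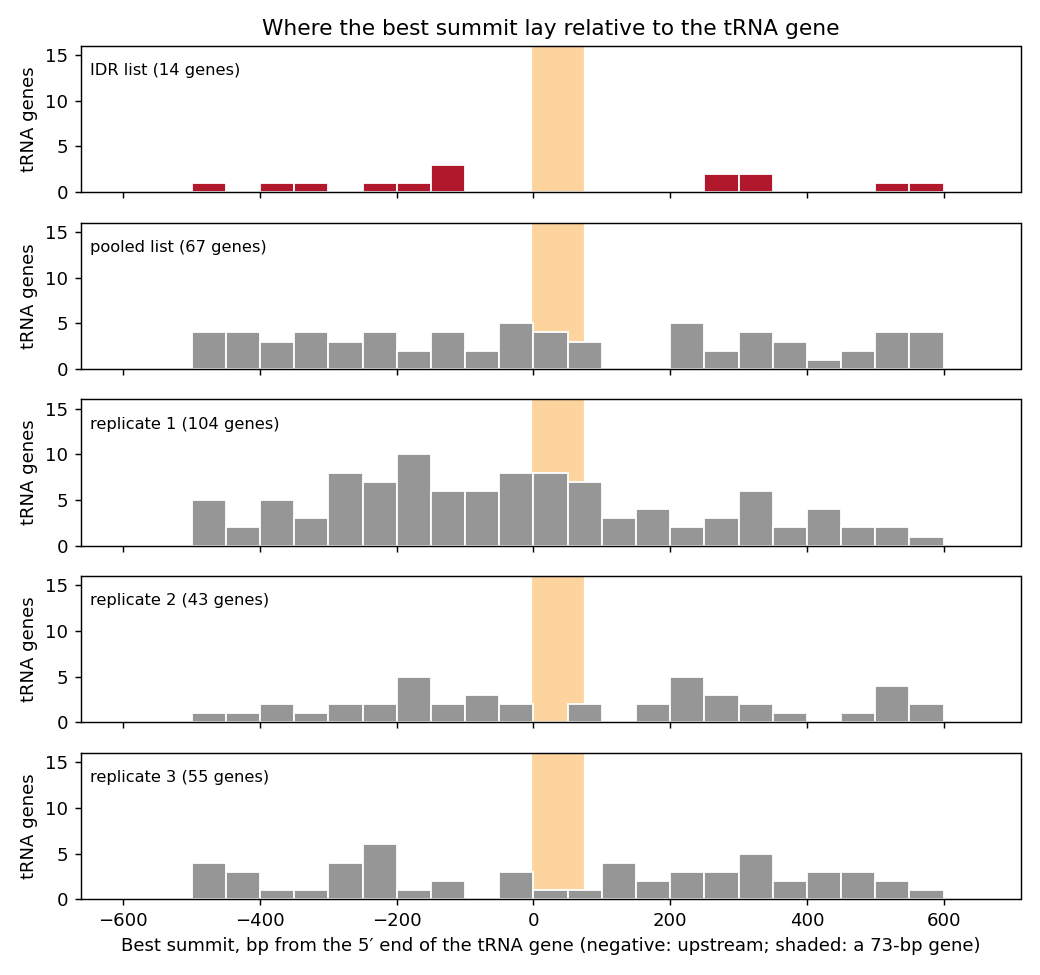
Number of tRNA genes by position of their best summit, in bp along the gene's strand from its 5′ end, in 50-bp bins, for each list; the shaded band is a gene of 73 bp. The IDR list has 0 in the band and 8 of 14 upstream, and replicate 1 fills the band where replicates 2 and 3 have 1 summit each inside a gene.

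Clustered tRNA genes, with another tRNA gene within 5000 bp, were compared with single ones. The 214 clustered genes formed 68 groups of 2 to 11 genes, and 76 genes were single. An IDR summit was near 10 of 214 clustered genes (4.67%, 95% Wilson interval 2.56 to 8.39%) and 4 of 76 single genes (5.26%, 2.07 to 12.8%). In the top peaks of the replicates the shares were 4.67%, 3.74% and 4.21% for clustered genes, with a mean of 4.21% ± 0.465, and 6.58%, 3.95% and 2.63% for single genes, with a mean of 4.39% ± 2.01 (SD, n = 3). The difference, clustered minus single, was -0.18 ± 1.75 percentage points (exact two-sided sign-flip test over the 3 replicates, p = 0.75). This is smaller than the spread between replicates, though 3 replicates can give no p under 0.25. In the full lists clustered genes were at 21.2% ± 11.7 and single genes at 29% ± 10.4. There the difference was -7.8 ± 5.53 points and negative in 3 of 3 replicates (exact p = 0.25, the smallest possible).

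Counted by locus, the order was the other way: 7 of 68 groups (10.3%) had an IDR summit near at least 1 gene, against 4 of 76 single genes (5.26%). A group spans more sequence and has more chances to include a summit. Clustered genes lay within 500 bp of a TSS in 12.1% of cases and single genes in 9.21%. Of the clustered genes with an IDR summit 5 were that near a TSS, and of the single genes 1. Few genes of the largest groups had an IDR summit, as was so for tRNA genes at large (4.83%), and 0 of 11 genes is near that share. The groups of 11 on 2R (chr2R:6161535-6171759, genes for Arg, Asn, Ile and Lys) and on 3R (chr3R:17617761-17631750, genes for Ala, Pro, Thr and Val) had 0 genes with an IDR summit. In the group of 7 genes on 2R that holds Glu-TTC-1-5 (chr2R:19725620-19728958, Glu and initiator Met), 1 gene had one. There replicate 1 placed a call near all 7 and replicates 2 and 3 near 1 each. The other groups of 7, at chr2R:13430282-13432794 (Ile and Leu) and chrX:14014814-14017284 (Arg and Ser), had 0 genes with an IDR summit. Replicates 1, 2 and 3 placed calls near 2, 1 and 1 genes of the former and 0, 0 and 2 of the latter.

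Genes with a sequence of their own were set against genes that share theirs with identical copies. Whole annotated genes were compared, so genes that differ only in an intron count as having sequences of their own. In the top peaks of the replicates, the first had a summit in 9.62%, 9.62% and 7.69% of 52, a mean of 8.97% ± 1.11. Those with copies had one in 4.2%, 2.52% and 2.94% of 238, a mean of 3.22% ± 0.875 (SD, n = 3). The difference was 5.75 ± 1.21 points and positive in 3 of 3 replicates (exact two-sided sign-flip test, p = 0.25, the smallest that 3 replicates allow). In the IDR list it was 5 of 52 (9.62%) against 9 of 238 (3.78%), and in the full lists 35.9% ± 7.77 against 20.4% ± 11.9. The replicate values of the whole classes did not overlap in the top peaks. They rest on 5, 5 and 4 genes with a sequence of their own and on 10, 6 and 7 with copies. The Ser-TGA pair, which shares 1 summit, gave 2 of the former in each replicate. The same few genes can recur in every replicate, so the SD and the sign do not cover variation between genes. The difference was seen among clustered genes and not evenly among single ones. For clustered genes the top peaks of replicates 1, 2 and 3 gave 13.8%, 13.8% and 10.3% of 29 genes with a sequence of their own, against 3.24%, 2.16% and 3.24% of 185 with copies. For single genes they gave 4.35% of 23 in each replicate, against 7.55%, 3.77% and 1.89% of 53 with copies, and in the IDR list it was 4.35% against 5.66%. The difference between these differences was not tested. Genes with a sequence of their own were near a TSS in 9.62% of cases and clustered in 55.8%, against 11.8% and 77.7% of genes with copies. Reads from identical copies may not map to 1 place, and how they were handled is not given in the sources used here. Their part in this difference was not tested.

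**Figure D5:**
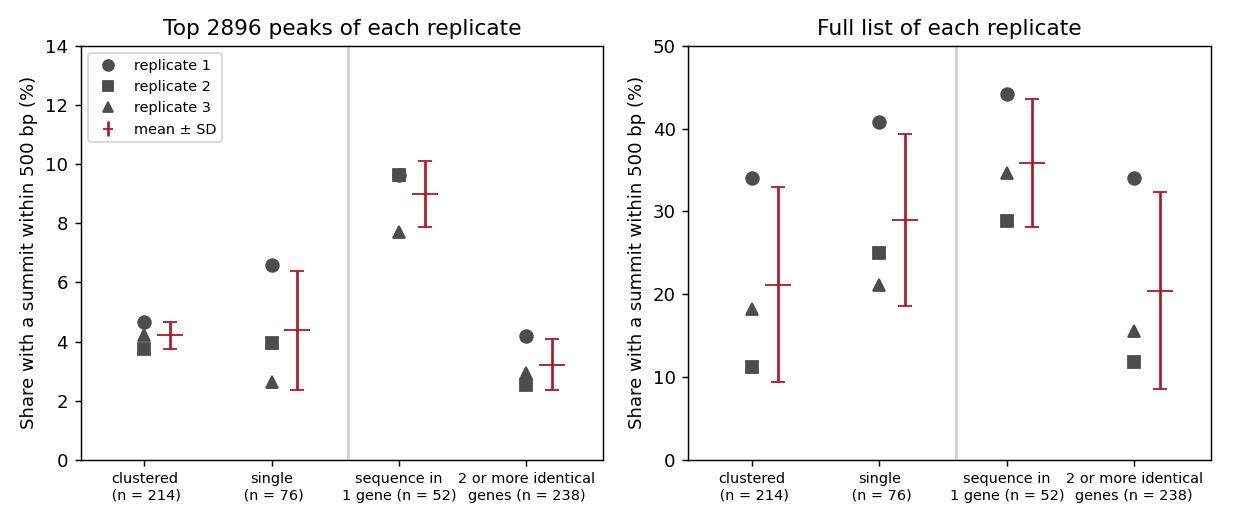
Share of tRNA genes within 500 bp of a summit in each replicate (symbols) with the mean and SD (red), in the top 2896 peaks (left) and the full lists (right), for clustered against single genes and for genes with a sequence of their own against genes with identical copies. In the top peaks clustered and single genes overlap, and genes with a sequence of their own (7.69 to 9.62%) are above those with copies (2.52 to 4.2%) in all 3 replicates.

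By isotype, the 14 genes were spread thinly. Asp had 2 of 14 genes with an IDR summit and Ser 2 of 20, and 10 other isotypes had 1 each. Leu, with 22 genes, Arg with 26 and Lys with 19 had 0, as did initiator Met with 6. By arm, 2R had 7 of 98, 3R 3 of 79, 2L 2 of 41, X 2 of 24 and 3L 0 of 48. Of the 14, 10 were intergenic (of 156 intergenic tRNA genes, 6.41%) and 4 lay in an intron of a protein-coding gene (of 127, 3.15%), while 0 of the 7 that overlap an exon had a summit.

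The full lists were also compared gene by gene across replicates. The same count was not made over all genes, so whether this agreement is low or high cannot be told. Of the 290 tRNA genes, 158 had no call within 500 bp in any full replicate list, 86 had one in 1 replicate, 22 in 2 and 24 in 3. Of the 86, 60 were found in replicate 1 only, 16 in replicate 3 only and 10 in replicate 2 only. Among the top peaks 19 tRNA genes were reached in any replicate and 7 in all 3, and all 7 were among the IDR genes. Just outside the IDR list were 5 genes that had a top peak in at least 1 replicate, with pooled ranks of 3063 to 5041. Pro-CGG-2-1, an X-linked gene 471 bp from the TSS of Bx, was the nearest to the threshold, with replicate ranks of 4020, 2785 and 4844.

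Other small RNA genes were counted by the same rule. snoRNA genes had an IDR summit in 15 of 269 cases (5.58%, 95% Wilson interval 3.41 to 9%) and microRNA genes in 6 of 260 (2.31%, 1.06 to 4.94%). The intervals of both overlapped that of tRNA genes. Spliceosomal and other small nuclear RNA (snRNA) genes had one in 9 of 32 (28.1%, 15.6 to 45.4%), at 8 distinct summits. In the top peaks of replicates 1, 2 and 3 the tRNA shares were 5.17%, 3.79% and 3.79%, against 25%, 15.6% and 21.9% for snRNA genes, so tRNA genes were lower in 3 of 3 replicates. Most snRNA genes are read by RNA polymerase II, but U6, U6atac and 7SK are read by RNA polymerase III. Of the 3 U6 genes on 3R, 2 had an IDR summit: snRNA:U6:96Ab and snRNA:U6:96Ac shared a summit of signal 149.7 with replicate ranks of 985, 1381 and 1129. The gene snRNA:7SKa, named after its values were seen, had a signal of 112.6 and replicate ranks of 1462, 2008 and 1272. The second 7SK gene, snRNA:7SKb, and the gene snRNA:U6atac had no IDR summit and no call within 500 bp in any replicate list. The 99 annotated rRNA genes on the arms, most of them 5S repeats, had a call nearby in 0 of the 5 lists (95% Wilson upper bound 3.74%). The list of other RNA polymerase III RNA genes, most of them 5S repeats, had an IDR summit at 2 of 103, the U6 pair. That list does not include the 7SK and U6atac genes, whose listed symbols did not match the annotation. Short reads may not map uniquely to repeats of near-identical sequence, and this was not tested.

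The protein-coding genes of the tRNA pathway were counted by any TSS, beside the 14.2% of all protein-coding genes. For the initiation factors and the repressor Maf1 it was 3 of 8 (37.5%). Bdp1, a TFIIIB subunit, had the strongest, with a signal of 570.0 and replicate ranks of 133, 27 and 52. That summit was 2 bp from the TSS of the neighbouring CG6565 and 131 bp from that of Bdp1. For Brf, another TFIIIB subunit, the signal was 350.6 and the replicate ranks were 278, 107 and 175, and the summit was 84 bp from the TSS of sds22 and 173 bp from that of Brf. Pbp95, which binds the upstream element of snRNA genes, had a summit of signal 99.03 at 500 bp from its TSS, the limit of the rule, and 90 bp from that of CG10435. By the same rule only replicate 2 reached Pbp95 (rank 1338), and replicates 1 and 3 had no call within 500 bp of its TSS. The top peaks of replicates 1, 2 and 3 thus reached 2, 3 and 2 of the 8 genes. All 3 were thus nearer to another gene's TSS.

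Among the 12 RNA polymerase III subunit genes 2 (16.7%) had an IDR summit. Polr1D, a subunit shared with RNA polymerase I, had a signal of 114.7 and replicate ranks of 1641, 1940 and 1737. Of 24 tRNA processing and modification genes it was 4, again 16.7%. Trmt61, of the enzyme that methylates adenosine in tRNA, had a summit 14 bp from its TSS with a signal of 142.0 and replicate ranks of 1010, 1225 and 2164. Rpp20, a protein of RNase P, had one of signal 130.6 that was nearer to the TSS of COX6B. Ranbp21, an export receptor, and La, which binds the ends of new RNA polymerase III transcripts, had signals of 102.2 and 89.35. Both of these lists were thus near the share of all protein-coding genes.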

How the data were processed

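Peaks of Atf3 tagged with GFP were analysed in 3 replicate embryo samples. The authors deposited narrowPeak lists with a signal value and a summit offset per call: relaxed lists per replicate and for the pooled replicates, made against a control file, and a list thresholded on IDR, per the file headers and README texts. Aligner, caller, IDR threshold and mapping filters: not given in the sources used here. Only the 5 dm6 lists were used, and the 5 dm3 lists were not analysed here. Sequence came from the release 6 RefSeq genome and genes from Ensembl release 115, without pseudogenes and transposable elements.

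A tRNA gene counted when a summit lay inside it or within 500 bp of its edges. Protein-coding genes were counted by any of 19252 TSSs and other genes by the 5′ end. Across lists, peaks were matched at an overlap of 50% or more of the shorter interval. Clustered genes had another tRNA gene within 5000 bp. Shares have 95% Wilson intervals, and replicates were compared with an exact sign-flip permutation test, whose smallest p is 0.25. The p-values measure only the spread between these samples.

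The A box and B box are degenerate consensus patterns; the shorter B box core was chosen after the full pattern was found in 36.2% of tRNA genes. Of the listed symbols, 1 initiation factor, 5 processing genes and 3 other RNA genes matched no annotated symbol. The members and lists were chosen with earlier results of these data known. Named genes were those with the highest signals in all, far from a TSS and among single genes, those nearest the gene start or with the widest replicate ranks, the largest clusters, and up to 4 of each list; the others named belong to small counts, and 1 gene of a list is not reported here. Alternatives covered the window, the peak threshold, the cluster distance, the unit and each replicate. The steps were tested on simulated data. The tools were scipy 1.17.1, numpy 2.4.6, matplotlib 3.10.9 and pandas 2.3.3 under Python 3.11.15.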

Additional observations from a re-analysis of the deposited data

How the results depend on the processing

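The values to set against are 14 tRNA genes with an IDR summit, 4.67% of clustered and 5.26% of single genes, a difference of -0.59 points, and 2.86% of genes over 1000 bp from a TSS. Of 52 alternative values 20 moved by less than the spread between replicates or 1.5 times and 0 reversed a called direction, since no test was passed. With a window of 250 bp the count was 9 and the clustered share 2.8%. With 1000 bp they were 25 and 9.35%, with a difference of 2.77 points and 6.19% far from a TSS. When the called interval had to overlap the gene, the count was 4, and the shares were 1.4% clustered, 1.32% single and 1.43% far from a TSS. The higher-signal part of the IDR list, cut at its middle, gave 7 genes, 2.34% clustered and 2.63% single. The pooled list at 2 times the IDR length gave 26 genes, 7.94% clustered, 11.8% single, a difference of -3.9 points and 7.14% far from a TSS. A cluster distance of 1000 bp gave 5.41% clustered and a difference of 1.6 points, and 20000 bp a difference of -2.45. Counting loci gave 10.3% clustered and a difference of 5.03 points. Leaving out each replicate in turn gave counts of 7 to 9, clustered shares of 2.34 to 3.27%, a single share of 2.63%, differences of -0.295 to 0.639 points and 1.9% far from a TSS. The sign of the clustered difference thus changed with the window, the cluster distance, the unit and the replicates kept. Windows and list lengths change the counts by construction. No paired analysis was possible because the samples form 1 group, so no 2 groups could be paired; the classes of tRNA genes were compared within each replicate. Without read totals the depth behind a missing call is unknown, so a tRNA gene with no summit is not shown to be unbound.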
